A study of Homo sapiens with 9 samples.

Results

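The AP-1 transcription factor genes examined here are FOS, FOSB, FOSL1, FOSL2, JUN, JUNB, JUND, ATF3 and BATF3. They were chosen as members of 1 gene family and are 9 of 20033 protein-coding genes. Open chromatin was profiled by ATAC-seq, in which the Tn5 transposase cuts accessible DNA, in the human triple-negative breast cancer (TNBC) line MDA-MB-231. A control shRNA (shCtrl), shEZH2 and shE2F1 each had 2 libraries, and there was a single library for shSUZ12, for DMSO and for 72 h of GSK126, which inhibits the methyltransferase activity of EZH2. shRNA cells were exposed to lentivirus for 24 h and then held in puromycin at 2 μg/ml for 72 h, each as a mixed population carrying 1 shRNA sequence, and the treatment label of the DMSO library reads WT. EZH2 and SUZ12 are subunits of PRC2, the complex that methylates H3K27, and E2F1 is a cell cycle transcription factor. All groups share the cell line, and nothing says that replicates were separate cultures. Knockdown cannot be checked from peak lists, which measure neither mRNA nor protein. The EZH2, E2F1 and SUZ12 promoters had a peak in every library.

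AP-1 is a family of dimers of basic leucine zipper proteins. FOS proteins bind DNA only when paired with a JUN protein, JUN proteins can also pair with themselves, and the dimers recognise the site TGACTCA, whose reverse complement is TGAGTCA. FOS, FOSB, JUN, JUNB and ATF3 are immediate early genes, switched on by MAP kinase signalling and stress, whereas FOSL1 (FRA1) and FOSL2 (FRA2) are commonly the lasting FOS family members of mesenchymal breast cancer cells such as MDA-MB-231.

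The lists held 58626 to 85812 peaks, the shortest being that of shEZH2 2 and the longest that of shE2F1 2. A peak's fold enrichment is the ratio of the tags at its summit to its local background, each with 1 added, and it was expressed as a percentile of all peaks in the same list. The most frequent local background of a list, which follows depth, ranged from 1.41 to 2.18 tags, and the median peak had 27 to 39 tags at its summit. Peaks lay at 62.0% to 66.7% of all promoters, taken as 1 kb on either side of the TSS. Promoters of 6 of 6 mesenchymal markers (VIM, CD44, CAV1, ZEB1, AXL and EGFR) had a peak in all libraries, as did 0 of 6 luminal markers. Luminal promoters were not without peaks, since ESR1 and CDH1 had one in 8 libraries, PGR and FOXA1 in 7 and GRHL2 in 1. Nor were all mesenchymal promoters strong, AXL falling to the 0.81 percentile in shEZH2 1. The luminal marker GATA3 and the blood markers PTPRC and CD3E had no peak in any library. With 2 libraries against 2, an exact permutation test cannot give a p below 0.333, so groups were compared by whether their values overlapped, beside the share of all promoters or regions that separated in the same way.

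The sequences below are windows of 201 bases on the summits of 6 regions at these loci, and a site of 29 bases at the FOSL2 TSS. They are shown because results below turn on these regions, or because they carry the site the encoded proteins bind. They were read from the plus strand of GRCh38, and capitals mark the AP-1 site or, at JUND, the related CRE site TGACGTCA.
FOSL2 TSS, chr2:28392851-28392879, across the start of exon 1: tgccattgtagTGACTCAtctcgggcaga
FOSL2 +16.6 kb, chr2:28409405-28409605, intron 3 of FOSL2: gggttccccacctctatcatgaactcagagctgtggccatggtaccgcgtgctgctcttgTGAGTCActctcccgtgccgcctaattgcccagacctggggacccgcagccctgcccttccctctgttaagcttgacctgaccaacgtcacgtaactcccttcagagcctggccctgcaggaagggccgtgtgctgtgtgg
FOSL2 −14.6 kb, chr2:28378123-28378323, intergenic: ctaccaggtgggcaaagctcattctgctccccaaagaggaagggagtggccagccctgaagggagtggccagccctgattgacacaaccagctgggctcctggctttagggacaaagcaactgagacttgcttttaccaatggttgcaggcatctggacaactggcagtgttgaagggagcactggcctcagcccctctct
FOSL1 −15.4 kb, chr11:65915729-65915929, intergenic: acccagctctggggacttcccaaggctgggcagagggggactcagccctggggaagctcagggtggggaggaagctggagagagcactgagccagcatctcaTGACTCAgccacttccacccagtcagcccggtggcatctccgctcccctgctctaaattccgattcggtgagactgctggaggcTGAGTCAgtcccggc
JUN −64.9 kb, chr1:58848889-58849089, intron 1 of ENSG00000231740: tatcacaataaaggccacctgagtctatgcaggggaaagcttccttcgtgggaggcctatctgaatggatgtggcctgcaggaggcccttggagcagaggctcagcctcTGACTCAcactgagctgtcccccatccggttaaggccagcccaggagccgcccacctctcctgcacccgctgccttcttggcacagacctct
FOS −65.4 kb, chr14:75213294-75213494, intergenic: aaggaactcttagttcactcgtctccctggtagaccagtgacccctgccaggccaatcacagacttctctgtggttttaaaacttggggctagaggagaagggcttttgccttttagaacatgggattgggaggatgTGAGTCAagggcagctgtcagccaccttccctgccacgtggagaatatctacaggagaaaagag
JUND promoter, chr19:18281675-18281875, upstream of the TSS: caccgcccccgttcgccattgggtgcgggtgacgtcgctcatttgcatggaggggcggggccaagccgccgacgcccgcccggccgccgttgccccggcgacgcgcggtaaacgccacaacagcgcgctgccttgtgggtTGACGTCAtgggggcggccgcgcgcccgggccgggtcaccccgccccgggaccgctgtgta
Distances are from the TSS in the direction of transcription, so negative values lie upstream. The AP-1 site at the FOSL2 TSS starts 4 bp downstream of it, and the FOSL1 −15.4 kb window holds 2 AP-1 sites.

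The promoters of all 9 AP-1 genes had a peak in all 9 libraries, as had 60.0% of all protein-coding promoters, so no gene of the family lost its promoter peak under any condition. By fold enrichment these peaks were of low rank among promoters. Averaged over libraries, JUNB stood lowest, at the 17.9 ± 5.54 percentile (SD, n = 9), followed by FOSL1 at 22.8 ± 8.57, FOS at 29.5 ± 10.4, FOSB at 29.7 ± 4.98 and FOSL2 at 38.1 ± 10.5. BATF3 followed at 48.1 ± 14.5, JUND at 56.8 ± 11.5, JUN at 63.3 ± 6.46 and ATF3 at 66.0 ± 7.21. Neighbours in this order overlapped in their ranges over libraries in all 8 cases, whereas the median of 12026 promoters with a peak in every library was 77.6, above the mean of each of the 9 genes.

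**Figure D1:**
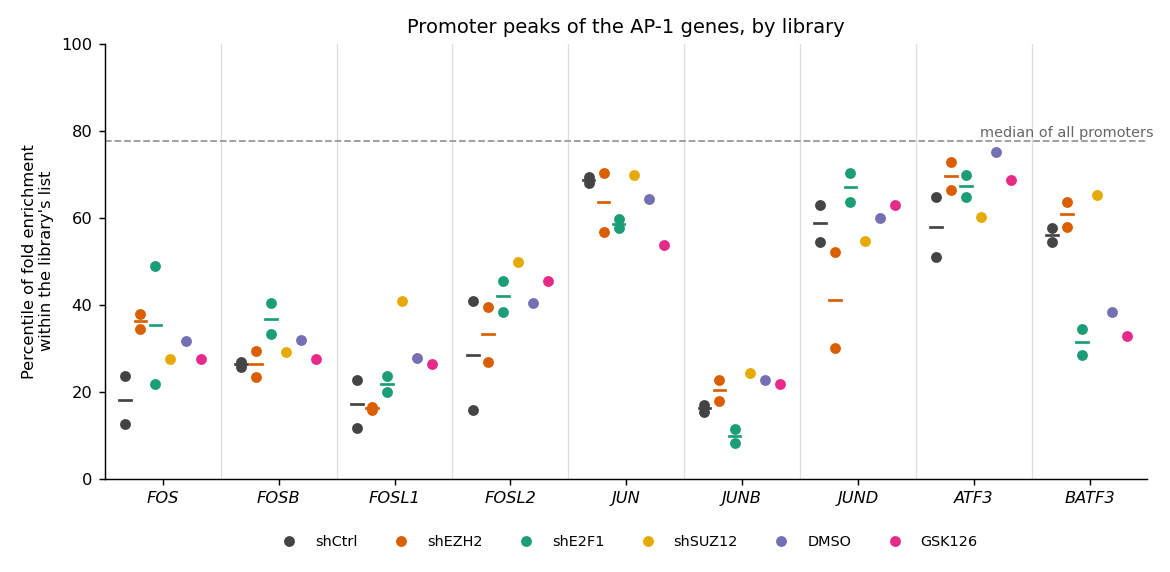
Percentile of fold enrichment of the strongest promoter peak within each library's list (y axis) for the 9 genes (x axis). Points are libraries, short bars are means of groups with 2 libraries, and the dashed line is the median of all promoters, 77.6. All points lie below the dashed line, and the shE2F1 points of BATF3 lie at 28.3 and 34.4, below its shCtrl points.

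By the tags at the summit, which are not divided by the background, the same peaks stood high in their lists. JUN averaged the 99.8 percentile of summit tags, FOSL1 the 99.7, ATF3 the 99.6, FOSL2 the 98.7, FOSB the 98.0, JUND the 97.4, JUNB the 95.6 and FOS the 91.9. These 8 genes stood above the median promoter, which was at the 86.0 percentile of tags, and BATF3, at 75.4, stood below it. The local background of the peaks was higher still in rank, from the 80.9 percentile at BATF3 to the 99.9 percentile at FOSL1, against 78.2 for the median promoter. Among the 9 genes, the rank among promoters by tags and by fold enrichment differed most at FOSL1, with more tags than 98.5% of promoters, a higher local background than 99.9% of them, and a fold enrichment above only 3.88% of them. Its summit held 148 to 351 tags over a background of 29.9 to 62.8 tags, where the median promoter averaged 92.1 tags over a background of 7.85.

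**Figure D2:**
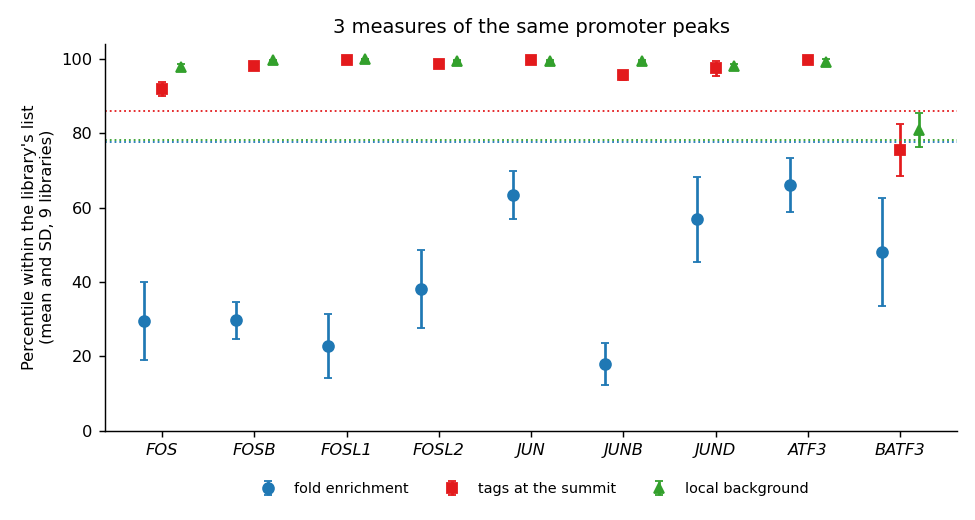
Percentile within the list (y axis, mean and SD over 9 libraries) of fold enrichment (circles), tags at the summit (squares) and local background (triangles) of the promoter peaks of the 9 genes (x axis). Dotted lines are the medians of all promoters for each measure, 77.6, 86.0 and 78.2, and fold enrichment lies below its line at every gene while background lies above its line.

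FOS encodes the founding partner of JUN and is induced within minutes of stimulation. Its promoter percentile was 12.5 and 23.6 with shCtrl, 37.9 and 34.5 with shEZH2, 21.7 and 48.9 with shE2F1, 27.5 with shSUZ12, 31.7 with DMSO and 27.5 with GSK126. Both shEZH2 values lay above both shCtrl values, a difference of 18.1 percentile points, while the shE2F1 values overlapped them. FOS had a pair of regions in the promoter window, with summits at −1.7 kb and −0.3 kb, and the stronger was the upstream one in 5 libraries and the one nearer the TSS in the other 4. At the upstream region shEZH2 gave 37.9 and 24.2 against 12.5 and 23.6 with shCtrl, and at the nearer region 19.6 and 34.5 against 11.4 and 22.4, where the groups overlapped. The tags at the summit were 100 and 80 with shEZH2 against 112 and 123 with shCtrl, and the local background was 16.3 and 12.6 against 26.0 and 23.6. Tags and backgrounds are not scaled for depth, and their part in these differences was not tested. With peaks within 500 bp of the TSS only, or by summit tags, the shEZH2 values of FOS overlapped shCtrl.

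FOSB, a second immediate early FOS gene, had its strongest promoter peak inside intron 1, with a summit 1282 to 1854 bp downstream of the TSS. That peak was at 25.7 and 26.9 with shCtrl, 23.4 and 29.4 with shEZH2, 33.2 and 40.4 with shE2F1, 29.1 with shSUZ12, 31.8 with DMSO and 27.6 with GSK126. It was higher in both shE2F1 libraries, by 10.5 points (6.88 without shE2F1 2), and overlapped shCtrl with shEZH2. With peaks within 500 bp of the TSS only, the shE2F1 values overlapped shCtrl too. The region at the FOSB TSS itself, with its summit at −0.3 kb and a CRE site, was weaker. It was at 7.06 and 18.7 with shCtrl, at 2.82 and 2.01 with shEZH2 and at 6.01 and 24.8 with shE2F1, so with shEZH2 both values lay below shCtrl.

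FOSL1 encodes FRA1, a protein without a transactivation domain of its own that is stabilised by ERK. The percentile of its promoter was 11.6 and 22.6 with shCtrl, 16.5 and 15.9 with shEZH2, 23.6 and 20.0 with shE2F1, 41.0 with shSUZ12, 27.7 with DMSO and 26.4 with GSK126. The shEZH2 values fell between the shCtrl values and the shE2F1 values overlapped them, with differences of −0.945 and 4.62 points against a gap of 11.0 between the shCtrl replicates. The single shSUZ12 library was the highest of the 9. FOSL2, which encodes FRA2, was at 40.9 and 15.9 with shCtrl, 39.6 and 26.9 with shEZH2, 38.5 and 45.5 with shE2F1, 49.9 with shSUZ12, 40.3 with DMSO and 45.4 with GSK126. Neither knockdown separated from shCtrl at FOSL2, whose shCtrl replicates differed by 25.0 points, more than at any other gene of the family. Without shCtrl 2 the shEZH2 difference turned sign at both genes, to 4.56 points at FOSL1 and −7.63 at FOSL2. By summit tags, which put both genes near the top of every list, both shEZH2 values lay below shCtrl at FOSL1, with a difference of −0.22 points, and at FOSL2, with 98.2 and 96.7 against 99.2 and 98.5. With all lists shortened to the length of the shortest, FOSL2 was higher than shCtrl without overlap in both comparisons, by 13.2 points with shEZH2 and 12.1 points with shE2F1. The shortest list, shEZH2 2, was not cut and FOSL2 stayed at 26.9 there, while its shCtrl values fell to 20.8 and 5.25. This setting therefore moves the groups unequally, and the share of all promoters that separated under it is not given.

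JUN encodes the strongest activator of the JUN proteins and stimulates its own promoter. Its percentile was 69.4 and 68.0 with shCtrl, 56.8 and 70.3 with shEZH2, 57.7 and 59.7 with shE2F1, 70.0 with shSUZ12, 64.2 with DMSO and 53.7 with GSK126. Both shE2F1 values lay below both shCtrl values, a mean difference of −10.0 points, and the shEZH2 values overlapped shCtrl. The tags at the JUN summit were 130 and 210 with shE2F1 against 244 and 322 with shCtrl, and the background was 17.5 and 27.3 against 25.9 and 33.3.

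JUNB, a weaker activator that can restrain JUN, was at 16.9 and 15.3 with shCtrl, 18.0 and 22.7 with shEZH2, 8.26 and 11.4 with shE2F1, 24.3 with shSUZ12, 22.7 with DMSO and 21.8 with GSK126. It was higher in both shEZH2 libraries by 4.21 points and lower in both shE2F1 libraries, with a difference of −6.32 points. The shEZH2 difference was 6.59 points without shEZH2 1 and 1.83 without shEZH2 2. By the percentile of summit tags, a ranking added after the data were seen, the second of these turned, and both shE2F1 values lay above shCtrl by 1.78 points, and with a promoter of 2 kb on each side the groups overlapped in both comparisons. In the GSK126 and shSUZ12 libraries the strongest JUNB peak had its summit at −1473 bp rather than at the TSS.

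JUND, the JUN gene that is expressed most steadily, was at 54.4 and 63.0 with shCtrl, 52.0 and 30.1 with shEZH2, 63.7 and 70.4 with shE2F1, 54.7 with shSUZ12, 60.0 with DMSO and 62.9 with GSK126. It was lower in both shEZH2 libraries, with a difference of −17.65 points, and higher in both shE2F1 libraries, by 8.31 points. The shEZH2 difference was −28.6 points without shEZH2 1 and −6.69 without shEZH2 2, and the shE2F1 difference was 4.0 points without shCtrl 1, 12.6 without shCtrl 2 and 4.97 without shE2F1 2. The shEZH2 values had an SD of 15.5, the lower being the library with the fewest peaks, and with the same number of top peaks taken from each library the shEZH2 values overlapped shCtrl. By −log10 p, by summit tags and among peaks of −log10 q of at least 5 the shE2F1 values overlapped shCtrl. The JUND promoter region holds the CRE site shown above, which 2.46% of all promoter regions hold within 100 bp of the summit.

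ATF3, a stress-induced partner of JUN proteins that often represses, was at 50.9 and 64.9 with shCtrl, 72.9 and 66.4 with shEZH2, 69.9 and 64.9 with shE2F1, 60.3 with shSUZ12, 75.1 with DMSO and 68.8 with GSK126. Both shEZH2 values lay above both shCtrl values, by 11.7 points, with 207 and 205 tags at the summit against 216 and 365 and a background of 22.0 and 23.5 against 29.8 and 39.7. The difference was 4.74 points without shCtrl 1 and 18.7 points without shCtrl 2. By −log10 p and by summit tags the shEZH2 values overlapped shCtrl, and the shE2F1 values overlapped it by fold enrichment. This peak was at the Ensembl canonical TSS. The 2 ATF3 starts in the RefSeq promoter table, one 43354 bp upstream of it and the other inside the gene, had no peak in any library.

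BATF3, a JUN partner without a transactivation domain that is best known from dendritic cells, showed the largest difference of the family. Its promoter percentile was 54.3 and 57.7 with shCtrl, 63.7 and 57.9 with shEZH2, 28.3 and 34.4 with shE2F1, 65.3 with shSUZ12, 38.3 with DMSO and 32.9 with GSK126. Both shE2F1 values were lower than both shCtrl values, a difference of −24.7 points, beyond the fifth percentile of −15.9 points over all promoters. The shEZH2 values were higher by 4.79 points (3.09 without shCtrl 1, 1.88 without shEZH2 1 and 7.70 without shEZH2 2), and by −log10 p and by summit tags they overlapped shCtrl with a difference below 0. The tags at the BATF3 summit were 42 and 56 with shE2F1 against 75 and 86 with shCtrl, over backgrounds of 7.22 and 9.46 against 9.30 and 9.72. DMSO and GSK126, which carry no shRNA, lay below both shCtrl values as well, with 50 and 54 tags.

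Counted over the family, shEZH2 values were higher than shCtrl without overlap at 4 of 9 promoters (FOS, JUNB, ATF3 and BATF3), where 10.6% of all promoters were, and lower at 1 (JUND), where 29.7% were. The median difference was 4.21 points for the 9 genes and −2.58 for 12234 promoters. With shE2F1, 2 were higher (FOSB and JUND), where 19.2% of all promoters were, and 3 were lower (JUN, JUNB and BATF3), where 17.0% were, with median differences of 8.31 points for the 9 genes and −0.07 for 12516 promoters. None of these separations passed a test, since the 2-sided exact permutation p of each was 0.333, the smallest the design can give. Ranked by −log10 p, 3 of the 5 shEZH2 separations remained (FOS, JUNB and JUND), and ranked by summit tags only that of JUNB did, while FOSL1 and FOSL2 became lower without overlap. Of the 5 shE2F1 separations, those of BATF3 and JUN remained under all the other rankings, windows and thresholds tried. The values of both genes were the same with windows of 500 bp and 2 kb as with 1 kb, so the windows tested little here. Leaving out a replicate cannot undo a separation at any gene, so it is not a check of these results.

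**Figure D3:**
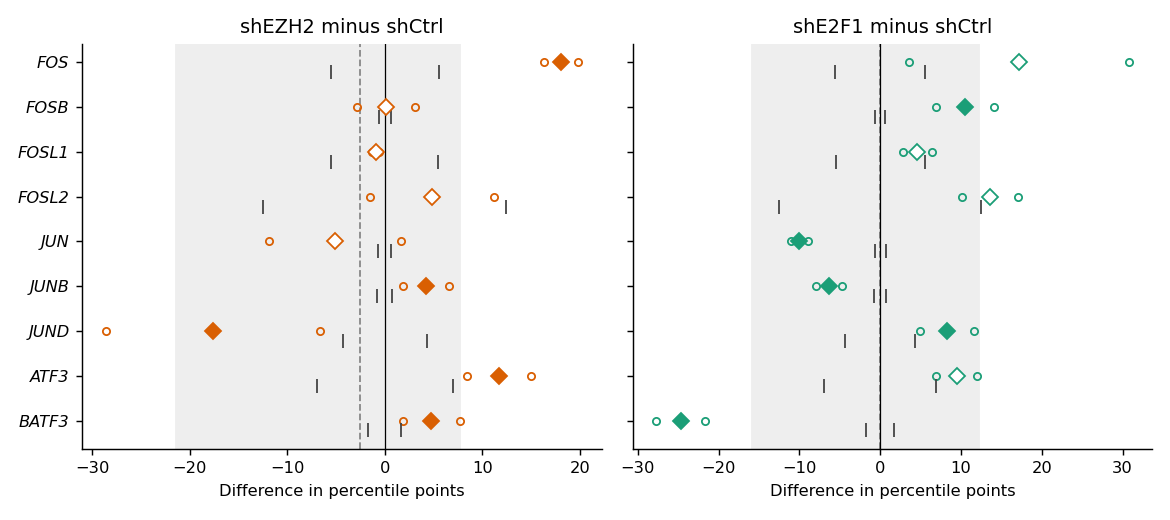
Difference in promoter percentile from the shCtrl mean (x axis, percentile points) for shEZH2 (left) and shE2F1 (right) at the 9 genes (y axis). Diamonds are group means, filled where the knockdown and shCtrl values do not overlap, circles are single knockdown libraries, ticks are shCtrl libraries, the dashed line is the median of all promoters and grey spans their 5th to 95th percentiles. FOS and ATF3 lie right of the grey span for shEZH2, FOS and FOSL2 right of it for shE2F1, and BATF3 left of it for shE2F1.

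The conditions with 1 library have no replicate check. With shSUZ12, 7 of 9 promoters lay above both shCtrl values, where 52.6% of all promoters did, and none lay below both, where 19.2% did. Differences from the shCtrl mean were largest at FOSL1, with 23.8 points, and FOSL2, with 21.5 points. GSK126 against DMSO gave differences from −10.5 points at JUN to 5.10 points at FOSL2. The difference was larger than the gap between the gene's own shCtrl replicates at JUN (gap 1.38), FOSB (−4.26 against 1.23) and BATF3 (−5.42 against 3.39). At the other genes it was within that gap, which was 25.0 points at FOSL2.

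Beyond the promoters, peaks of all lists were merged where they overlapped, which gave 118719 regions, and 217 of them lay in a gene body or within 100 kb of the TSS of an AP-1 gene. Of these, 15 were at the genes' own promoters, 38 at promoters of other genes, and 164 were non-promoter regions, 12 of which are shared by ATF3 and BATF3, neighbours on chromosome 1. Peaks were present in every library at 72 of the 164 (43.9%), against 28.4% of all 103892 non-promoter regions. By library, 91 of the 164 had a peak in shEZH2 2, which has the shortest list, and 128 in shCtrl 2. FOSB had the most non-promoter regions, 27, and FOS the fewest, 14.

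The FOSL2 locus spans 24460 bp of gene on chromosome 2 (28392858 to 28417317) and had 21 non-promoter regions, 11 of them with a peak in every library. The strongest lay at −66.6 kb in intron 11 of BABAM2, with a median percentile of 86.6 and values of 86.6 and 88.3 with shCtrl, 90.3 and 96.0 with shEZH2, and 80.1 and 86.7 with shE2F1. It holds 1 AP-1 site, and both shEZH2 values lay above shCtrl. Inside FOSL2, the region at +16.6 kb in intron 3, which holds an AP-1 site, was at 42.9 and 44.1 with shCtrl, 66.0 and 67.4 with shEZH2, 55.6 and 59.7 with shE2F1, 69.3 with shSUZ12, 61.6 with DMSO and 73.6 with GSK126. Both shCtrl libraries were the lowest of the 9 at this region.

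The difference at FOSL2 +16.6 kb was 23.2 points for shEZH2 and 14.1 points for shE2F1, with SDs of 0.84 (shCtrl) and 2.95 (shE2F1). Over all non-promoter regions, 12.0% were higher without overlap with shEZH2 and 16.2% with shE2F1. The number of tags at its summit was not higher, being 164 and 129 with shEZH2 and 100 and 165 with shE2F1 against 183 and 253 with shCtrl, whereas the local background was 19.1 and 14.3, and 13.7 and 21.2, against 27.9 and 37.1. The part of the background in this result was not tested. A weaker region at +14.0 kb in intron 2 differed in the same direction, being at 7.13 and 7.06 with shCtrl, 20.0 and 16.0 with shEZH2, and 19.2 and 17.8 with shE2F1.

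A single region downstream of FOSL2 differed in the opposite direction under both knockdowns. The intergenic region at +59.7 kb was at 60.6 and 59.7 with shCtrl, 43.0 and 41.1 with shEZH2 and 44.7 and 44.2 with shE2F1, with 66.3 in DMSO, 57.0 in GSK126 and 60.0 in shSUZ12. Both knockdowns lay below shCtrl, with differences of −18.1 and −15.7 points, where 31.9% of all non-promoter regions were lower with shEZH2 and 24.1% with shE2F1. Here the unscaled tags were fewer too, 61 and 46 with shEZH2 and 43 and 69 with shE2F1 against 94 and 107.

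The region at −14.6 kb of FOSL2 had a peak in both shCtrl libraries, at 11.7 and 20.8, and in no other library. It was weak, with 16 and 21 tags at the summit, and its window holds no AP-1 site. A region at +20.9 kb in the 3′ UTR had the same pattern at 0.51 and 0.92. Peaks at −50.2 kb (8.07 and 9.41 with shCtrl) were absent with shEZH2 and at 14.4 and 34.6 with shE2F1. Of the other FOSL2 regions, −53.8 kb had no peak with shE2F1 and +78.6 kb none with shEZH2, so that 4 regions were lost with shEZH2 and 3 with shE2F1, and none was gained. Over all non-promoter regions, 7.99% were lost and 1.01% gained with shEZH2, and 4.10% and 3.25% with shE2F1. With all lists shortened to the length of the shortest, none of the lost FOSL2 regions was still called lost.

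The second region in the FOSL2 promoter window, at −1.1 kb, lay at or below the 4.03 percentile in the 8 libraries that had a peak there. Among the remaining FOSL2 regions with peaks in at least 5 libraries, those at −96.4 kb, −31.8 kb and +53.2 kb overlapped shCtrl under both knockdowns, with median percentiles of 77.2, 28.4 and 69.7. At −33.3 kb both shEZH2 values (51.5 and 48.3) lay above shCtrl (42.5 and 25.0), by 16.1 points. At −26.2 kb both shE2F1 values (78.1 and 75.1) lay above shCtrl (67.9 and 59.6), by 12.8 points. Of the rest, −95.7 kb, −2.2 kb and +57.1 kb were lower with shEZH2, with differences of −10.1, −1.70 and −9.33 points, and −5.6 kb was higher by 10.0 points. The region at −36.6 kb was lower with shEZH2 (−5.97 points) and higher with shE2F1 (4.65 points).

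**Figure D4:**
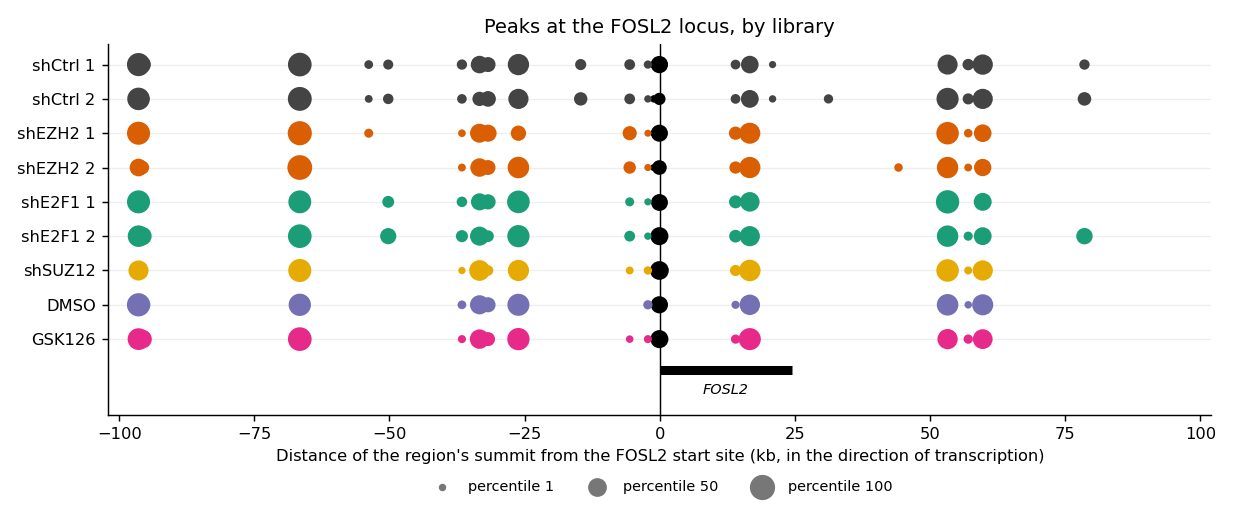
Peaks at the FOSL2 locus, with the distance from the TSS on the x axis (kb) and a row for each library. Dot area follows the percentile of fold enrichment, black dots are the FOSL2 promoter, coloured dots are non-promoter regions, and the black bar is the gene. The dot at −14.6 kb is present only in the shCtrl rows, and the dots at +16.6 kb are smallest in those rows.

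The FOSL1 locus is gene-dense, with 9 of its 32 regions at promoters of other genes, 22 non-promoter regions and 1 region at its own promoter. FOSL1 itself spans 8340 bp on the minus strand of chromosome 11 (65892049 to 65900388). Of the non-promoter regions, 7 had a peak in every library and 8 in 1 library only. The strongest were distant. The intergenic region at −88.7 kb, nearest to EIF1AD, was at 93.4 and 92.4 with shCtrl, 83.6 and 84.8 with shEZH2, and 87.5 and 86.4 with shE2F1. The one at +82.1 kb, nearest to SNX32, was at 81.6 and 92.2 with shCtrl, 64.5 and 70.6 with shEZH2, and 57.3 and 79.3 with shE2F1. Both knockdowns lay below shCtrl at both regions, and neither region holds an AP-1 site within 100 bp of its summit.

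Nearer to FOSL1 the regions were weak. The one at −15.4 kb, with the pair of AP-1 sites, was at 16.8 and 18.4 with shCtrl, 22.8 and 30.2 with shEZH2, 12.7 and 18.0 with shE2F1, 30.1 with shSUZ12, 12.3 with DMSO and 15.6 with GSK126. It was higher in both shEZH2 libraries by 8.94 points. The region at −2.9 kb lay between 6.98 and 20.2 and overlapped shCtrl under both knockdowns, as did that at −11.5 kb. The region at +15.6 kb had a peak in 6 libraries, 1 of each knockdown among them. At −9.5 kb all 9 values lay at or below the 3.03 percentile. At −41.2 kb, which holds 1 AP-1 site, both shE2F1 values (66.0 and 70.4) lay above shCtrl (45.1 and 43.4), and the shEZH2 values (56.2 and 21.4) lay on either side of it.

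Of the 9 regions at other genes' promoters, 7 had a peak in every library. The strongest was that of SART1 at −61.3 kb, with a median percentile of 83.0 and differences of −15.8 points with shEZH2 and −10.2 with shE2F1, both without overlap. The promoter region nearest to MUS81 at +40.8 kb was lower with shEZH2 (−15.6 points), that of CFL1 at +42.1 kb lower with shE2F1 (−13.2 points), and that of EFEMP2 at +26.7 kb higher with shE2F1 (9.89 points). The DRAP1 region at −18.9 kb was lower with shEZH2 (−4.97 points) and higher with shE2F1 (8.18 points), and the region of CCDC85B at +9.8 kb was higher with both, by 2.38 and 1.75 points. That of FIBP at +11.9 kb overlapped shCtrl in both comparisons.

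At FOSL1, 2 regions were lost with shEZH2 and 1 with shE2F1, where 7.99% and 4.10% of all non-promoter regions were. None was gained, where 1.01% and 3.25% of all were. The region at +48.9 kb in intron 8 of SNX32 had peaks with shCtrl at 8.41 and 2.31, with DMSO at 2.45, GSK126 at 15.0 and shSUZ12 at 11.5, and had none with shEZH2 or shE2F1.

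**Figure D5:**
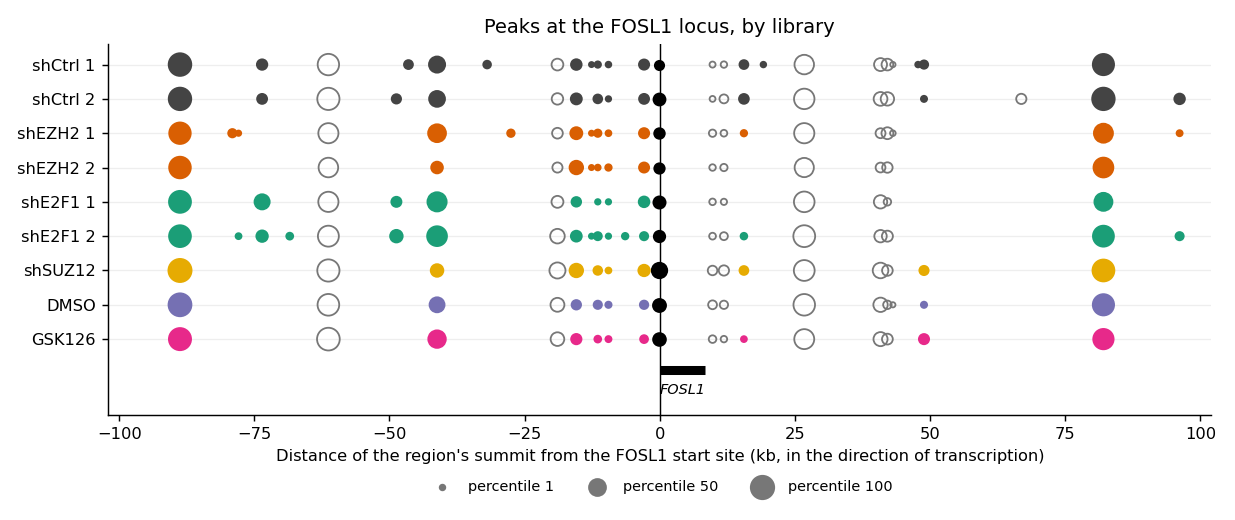
Peaks at the FOSL1 locus, with the distance from the TSS on the x axis (kb, positive in the direction of transcription) and a row for each library. Dot area follows the percentile of fold enrichment, black dots are the FOSL1 promoter, open dots are promoters of other genes, coloured dots are non-promoter regions and the black bar is the gene. Coloured dots at −88.7 kb occur in every row, and those at +48.9 kb in the shCtrl, DMSO, GSK126 and shSUZ12 rows.

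At each of the other loci the non-promoter region with the highest median percentile was read, so a high rank follows from the choice. At JUN, the region at −64.9 kb with the AP-1 site shown above had values from 96.7 to 99.8. The region at −19.6 kb of FOS, in an intron of ENSG00000258740, lay between 93.7 and 99.1. BATF3 had its strongest at −28.1 kb, in the 3′ UTR of NSL1, from 90.7 to 99.3. The JUND region at −92.9 kb near GDF15 ranged from 91.4 to 97.3, the FOSB region at +17.5 kb in RTN2 from 88.8 to 97.7, the ATF3 region at −41.5 kb from 81.8 to 96.9, and the JUNB region at +56.3 kb in intron 6 of MAST1 from 80.5 to 93.5.

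Lost regions were more frequent than gained ones. With shEZH2, 15 of 149 member regions (10.1%) were lost and 1 (0.67%) was gained, where 7.99% of all non-promoter regions were lost and 1.01% gained. The gained region was FOS −65.4 kb, at 38.0 and 36.5 in shEZH2 and without a peak in the other 7 libraries. With shE2F1, 11 of 152 (7.24%) were lost and 3 (1.97%) gained, where 4.10% and 3.25% of all were. With shSUZ12, 18 of 141 (12.8%) were lost and 4 (2.84%) gained, where 9.64% and 7.40% were. With GSK126, 9 of 111 (8.11%) were lost against DMSO and 4 (3.60%) gained, where 19.4% and 9.89% were.

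The lost regions outside FOSL1 and FOSL2 included some of middle rank. At JUN, +14.6 kb (42.6 and 35.5 with shCtrl) and −90.9 kb (39.9 and 60.8) had no peak in either shEZH2 or either shE2F1 library. JUNB −30.7 kb, at 64.9 and 40.9 with shCtrl, had none with shEZH2 and lay at 38.2 and 23.5 with shE2F1. JUND −68.1 kb, at 50.5 and 61.9, had none with shE2F1. The 3 regions gained with shE2F1 were JUN +44.0 kb (38.6 and 52.8), JUNB +30.5 kb (20.4 and 40.7) and the region shared by ATF3 and BATF3 at −2.3 kb of BATF3 (3.93 and 3.81). Peaks in both shCtrl libraries and no other were found at 4 member regions, the FOSL2 pair above, FOSB +89.5 kb and JUND −22.0 kb, and at 0.69% of all non-promoter regions.

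With the same 58626 top peaks taken from each library, 4 of the 15 regions lost with shEZH2 and 3 of the 11 lost with shE2F1 were still called lost, and none of these was at FOSL1 or FOSL2. The shares lost were then 4.84% and 4.07%, beside 4.46% and 4.18% of all non-promoter regions. Calls from fewer libraries were more frequent. Regions lost with shEZH2 came to 17.6% without shCtrl 1, 15.8% without shCtrl 2 and 20.6% without shEZH2 1, and regions lost with shE2F1 to 12.4% without either shCtrl library and 14.8% without shE2F1 2. Those lost with shSUZ12 came to 22.6% without shCtrl 1 and 20.2% without shCtrl 2. The shares of all non-promoter regions without the same libraries are not set beside these values, so the rises are not read as a trait of the member regions.

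Where all 4 libraries of a comparison had a peak, shEZH2 values were lower without overlap at 24 of 81 member regions (29.6%, against 31.9% of all) and higher at 13 (16.0%, against 12.0%). With shE2F1, 22 of 94 (23.4%) were lower, against 24.1% of all, and 22 were higher, against 16.2%. AP-1 sites lay within 100 bp of the summit of 44 of the 164 member regions (26.8%), against 28.4% of all non-promoter regions and 5.48% of promoter regions. Among regions with a peak in every library, 23 of 72 member regions (31.9%) had one, against 38.3% of all.

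Genes around AP-1 in its pathway were read in the same way. A peak was present in every library at 10 of 12 other basic leucine zipper partners, 10 of 10 MAP kinase genes, 4 of 5 regulators of FOS transcription, 10 of 10 immediate early and feedback genes, and 5 of 10 genes known as AP-1 targets. Over all promoters, 29.7% were lower and 10.6% higher with shEZH2. Of 10 immediate early genes, 3 were lower without overlap, close to that share, and none was higher. EGR1 was at 36.6 and 43.2 with shCtrl and at 12.4 and 28.6 with shEZH2, IER3 at 11.0 and 33.2 against 9.38 and 3.85, and IER2 at 15.7 and 14.0 against 4.22 and 2.19. MAPK8, which encodes the JUN kinase JNK1, was at 85.6 and 79.1 with shCtrl, 66.7 and 54.7 with shEZH2, and 93.0 and 94.6 with shE2F1.

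Among AP-1 targets, 3 of 6 with values in all 4 libraries were lower with shEZH2, where 29.7% of all promoters were, and none was higher. CD44, a cell adhesion receptor that is also among the 6 mesenchymal markers, was at 40.7 and 44.4 with shCtrl and at 24.9 and 22.0 with shEZH2, and CXCL8, a chemokine gene, was at 96.4 and 84.2 against 69.4 and 82.8. Of the other mesenchymal markers, AXL (−19.3 points) and ZEB1 (−14.8) were lower with shEZH2, VIM (27.3) was higher, and CAV1 and EGFR overlapped shCtrl. CCND1, an AP-1 target that encodes cyclin D1, differed by −2.86 points. Its peaks were near the bottom of the lists, at 1.14 and 5.15 with shCtrl and 0.0651 and 0.514 with shEZH2. The other bZIP partners had 3 of 10 higher (10.6% of all promoters) and 2 lower (29.7% of all promoters) with shEZH2, among them MAFF (5.56 points), MAFG (−14.6 points) and ATF4 (−5.09 points). MAP kinase genes had 2 of 10 lower with shEZH2, MAPK8 and MAPK14 (−5.46 points), a smaller share than the 29.7% of all promoters, and none higher. FOS regulators had 2 of 4 lower, SRF (−10.1 points) and ELK4 (−6.33 points), and 1 higher, ELK1 (3.89 points), with only 4 genes to set against the 29.7% and 10.6% of all promoters. With shE2F1, where 17.0% of all promoters were lower and 19.2% higher, 2 of 10 immediate early and feedback genes were lower and none higher. DUSP4 and SPRY4, feedback inhibitors of MAP kinase signalling, were lower, with differences of −21.1 and −10.4 points, while MAFF (6.63 points), MAPK8 (11.5) and ELK1 (4.92) were higher and ELK4 (−4.12) and PLAUR (−3.34) lower.

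The promoters whose 9 percentiles lay nearest to those of FOSL1 by Euclidean distance were ATXN1 (distance 16.0), UPP1 (16.4) and MT2A (16.5), and those nearest to FOSL2 were ANXA11 (19.3), VLDLR (20.2) and ESAM (21.2), among 12026 promoters.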

How the data were processed

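ATAC-seq peak lists of 9 MDA-MB-231 libraries were used, 1 per library. The authors aligned reads with Bowtie2 to GRCh38 (hg38 in the submitters' processing notes) and shifted them for the Tn5 cut site; the peak caller is not given in the sources used here. The deposited columns used were fold enrichment (a ratio to local background), the −log10 of p and of q (a −log10 p-value and q-value), and the summit. Tags at a summit and the local background were recovered as the whole number and Poisson mean that give both values, which fitted every peak to within 0.00118 in −log10 p.

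Fold enrichment was ranked within its list. A promoter reached 1 kb up- and downstream from the start of a gene's canonical Ensembl transcript (GENCODE 44), and its strongest peak stood for it. Overlapping peaks (1 bp or more) formed a region, which was called gained or lost where all libraries of one group and none of the other had a peak. Percentiles were called higher or lower where groups did not overlap. Single values had a 2-sided exact permutation test. Intervals from counts are not given for percentiles, and PCR copies are not independent molecules. Alternatives were other rankings, windows and thresholds and leaving out each replicate. The ranking by summit tags was chosen after seeing the data. The steps were tested on simulated data.

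The members and gene lists were chosen with earlier results of these data known. Named were all members, regions at FOSL1 and FOSL2 with peaks in at least 5 of 9 libraries or gained or lost, the strongest and up to 3 gained or lost regions at the other loci, 3 nearest promoters, and up to 3 called genes a list. One listed gene and one region that this rule names are not reported here. CRE and AP-1 sites were matched exactly on both strands. Sequences were read from GRCh38, whose chromosome lengths hold all peaks. The RefSeq promoter table (GRCh38.p14), used for starts only, matched 7 of the 9 genes by symbol (all but FOSL1 and BATF3), and its start equalled the canonical one at 6 of these, ATF3 being the exception. Analyses used Python 3.11.15, numpy 2.4.6, pandas 2.3.3, scipy 1.17.1 and matplotlib 3.10.9.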

Additional observations from a re-analysis of the deposited data

Results flagged for a closer look

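At 3 promoters all shEZH2 values lay on one side of shCtrl and all shE2F1 values on the other. The share of all promoters that separated in opposite directions is not given beside this count, so it is not read as a trait of the family. Both comparisons share the shCtrl libraries, and the difference between the knockdowns was not tested. JUNB differed from shCtrl by 4.21 percentile points with shEZH2 and −6.32 with shE2F1, JUND by −17.65 and 8.31, and BATF3 by 4.79 and −24.7. The same held at 2 weak regions of the FOSL loci, FOSL1 −9.5 kb, with 1.35 and −0.36 points, and FOSL2 −36.6 kb, with −5.97 and 4.65 points. It also held at the DRAP1 promoter region at −18.9 kb of FOSL1, with −4.97 and 8.18 points, and at the promoter of MAPK8, with −21.6 and 11.5 points. The BATF3 separation with shEZH2 rested on 57.9 in shEZH2 2 against 57.7 in shCtrl 2, and its difference turned sign by −log10 p. That of JUNB with shE2F1 turned sign by summit tags.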

How the results depend on the processing

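Of the 9 promoters, 5 separated from shCtrl with shEZH2 and 5 with shE2F1. Ranked by −log10 p, 3 and 3 separated, all of them among the 5, and ranked by summit tags, an alternative chosen after seeing the data, 3 with shEZH2 (JUNB, and FOSL1 and FOSL2, which were not among the 5). With shE2F1, summit tags separated FOSB, JUN, JUNB and BATF3, with JUNB in the opposite direction. The shares of all promoters under these rankings are not given beside the counts. Leaving out 1 replicate gave 7 in each case with shEZH2 and 6 to 8 with shE2F1. Fewer libraries separate more easily, so these counts could not fall below 5. The share of all promoters is not given beside them, and they are not read as a result about the family. The labels do not say whether the replicate numbers pair the libraries. Replicate differences across promoters correlated at 0.0520 for shCtrl with shEZH2 and 0.0576 for shCtrl with shE2F1. With the replicate block, 5 promoters with shEZH2 and 6 with shE2F1 differed in 1 direction in both pairs. Among differences called in the report or under the alternative, the sign turned by −log10 p at BATF3 with shEZH2 (−0.754), by summit tags at BATF3 (−2.16) and FOSL2 (−1.38) with shEZH2 and at JUNB with shE2F1 (1.78), at FOSB with shEZH2 with a 500 bp window or the summit nearest to the TSS (−10.5 in both) and at JUNB with shEZH2 with a 2 kb window (−0.507). Differences called under neither also turned, by −log10 p at FOSB and FOSL2 with shEZH2 and ATF3 with shE2F1, by summit tags at FOSB and JUN with shEZH2 and FOSL1 and ATF3 with shE2F1, in shortened lists at FOSL1 and JUN with shEZH2, and with a −log10 q of at least 5 at FOSB with shEZH2. Without 1 replicate, the shE2F1 difference ran from −0.882 to 10.1 at FOSL1, and the shEZH2 differences ran from −2.89 to 3.07 at FOSB, −6.45 to 4.56 at FOSL1, −7.63 to 17.3 at FOSL2 and −11.9 to 1.64 at JUN. With all lists shortened to the length of the shortest, the regions lost were 4.84% with shEZH2, 4.07% with shE2F1, 8.04% with shSUZ12 and 3.12% with GSK126, and those gained with GSK126 were 10.4%. Within 50 kb, none of 94 regions (0%) was gained with shEZH2, and 6.67% were lost with shSUZ12 and 4.17% with GSK126. With shCtrl 1 or shCtrl 2 in place of DMSO, GSK126 lost 19.7% or 21.5%. Without 1 replicate, losses ran from 13.7% to 20.6% with shEZH2, 7.33% to 14.8% with shE2F1 and 20.2% to 22.6% with shSUZ12, and gains from 0.719% to 6.16% with shEZH2 and 2.76% to 8.67% with shE2F1. These are shares of member regions, given without those of all non-promoter regions, so they are not read as a trait of these loci. AP-1 sites lay within 50 bp of the summit at 20.1% of member regions. The causes of these shifts were not tested. Of 389 values under alternatives, 61 counts or shares and 233 single values stayed within the limits set for no change. Counts of members had to stay within a set factor of the main count, whichever genes were called. Shares had to stay within the 95% Wilson interval of the main share. Called single values had to keep their call. Uncalled ones had to remain uncalled and move by no more than the replicate SD, so their sign could turn. Depth limits which weak peaks reach a list, so a lost peak is one not called at this depth.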
